A study of Mus musculus with 10 samples.

Results

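The array covered 54 small nucleolar and Cajal body RNA genes of mouse, out of 19938 genes with a symbol of their own. They were the genes whose probe set carried a single gene symbol starting with Snora, Snord or Scarna in the platform annotation, and the probe set with the highest mean stood for a gene with several. Of the 54, 20 were H/ACA genes (Snora), 31 were C/D genes (Snord) and 3 were Cajal body genes (Scarna13, Scarna17 and Scarna8). Marrow from the long bones of male Swiss mice aged 4 to 6 weeks was cultured in medium with fetal calf serum and 1,25(OH)2D3, the active form of vitamin D. The adiponectin cultures also received recombinant mouse adiponectin, a hormone of fat cells, at 5 µg/ml, and the control cultures received vehicle. RNA was taken at 4, 10, 24, 72 and 120 h from 1 adiponectin culture and 1 control culture, so there were 5 pairs of arrays, 10 in all. Contamination by lipopolysaccharide, or bacterial endotoxin, stands in the submitters' title, so an effect of the adiponectin preparation cannot be told apart from one of endotoxin in it.

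Small nucleolar RNAs are short stable RNAs that work with proteins in the nucleolus. H/ACA RNAs direct the conversion of chosen uridines of ribosomal RNA to pseudouridine, and C/D RNAs direct methylation of the ribose, while a few members of each class take part in cutting the ribosomal RNA precursor. Cajal body RNAs do the same for the small nuclear RNAs of the spliceosome. In mammals most of them are cut out of introns of other genes, often genes for ribosomal proteins or long non-coding RNAs whose transcripts begin with a run of pyrimidines.

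The placement of these genes followed that pattern. In RefSeq (GRCm38.p6), 53 of the 54 lay inside the span of another gene, and the exception was Snord118, the RNA of the C/D class known as U8 that is needed to process the large-subunit ribosomal RNA. The containing genes included Rps3, Rpl13a, Rpl23a and Rpl10 for ribosomal proteins, Eef2 for an elongation factor, Nop56 and Ncl for nucleolar proteins, and the non-coding genes Snhg3, Snhg12 and Gas5. Start sites of 3 non-coding containing genes are shown because each holds a pair of these RNAs, so that 2 members share 1 primary transcript. Each line runs from 40 bases before the annotated start through 20 bases from it. Capitals mark a run of at least 5 pyrimidines (C or T) that overlaps the 5 bases on either side of the start. The windows lie at chr4:132353667-132353726 on the minus strand for Snhg3, which holds Snora73a and Snora73b, at chr4:132308638-132308697 on the plus strand for Snhg12, which holds Snora16a and Snora44, and at chr11:62602837-62602896 on the plus strand for 2410006H16Rik, which holds Snord49a and Snord49b.
Snhg3: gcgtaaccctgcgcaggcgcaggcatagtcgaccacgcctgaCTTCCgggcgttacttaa
Snhg12: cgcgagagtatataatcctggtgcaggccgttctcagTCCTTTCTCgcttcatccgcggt
2410006H16Rik: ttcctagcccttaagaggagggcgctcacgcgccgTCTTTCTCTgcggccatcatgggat
Such a run, searched on the gene's strand, was found in 19 of the 32 containing genes with a window (59.4%) and in 35.1% of the 27025 genes with one. The letters CACGTG, which read the same on both strands, were found within the 300-base window of 6 of the 32 (18.8%) and of 8.1% of all genes. These are matches of letters and were not tested as sites.

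The signal of the 54 genes spanned the whole range of the array. The deposited values are log2 signals, and each probe set binds with its own strength, so levels of different genes are not ranked here as amounts of RNA. The mean log2 signal over 10 arrays was above the median gene (8.43) for 27 of the 54 and below it for the other 27. The highest means were those of Snora52 (12.94), Scarna13 (11.63) and Snord57 (11.15), and the lowest were those of Snord58b (4.27), Snord61 (4.74) and Snord38a (5.56). Values for the dimmest genes may lie near the background of the array, which the deposited values do not give.

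The small RNAs varied more between arrays than most genes did. The range over the 10 arrays had a median of 0.97 log2 units for the 54 genes, against 0.50 for all genes. It exceeded 1 log2 unit in 25 of the 54, and in 12.43% of all genes. At the quiet end, Snord55 ranged over 0.23 log2 units, while Scarna17 ranged over 2.56 and Snord57 over 2.32. The RNAs were taken from whole cultures, in which fewer cells of a type and less RNA per cell cannot be told apart.

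The 24 h control array stood apart from the others. Of the 54 genes, 2 had their highest value of the series on the 24 h adiponectin array, where 11.6% of all genes had theirs. On the 24 h control array 40 of the 54 had theirs, against 15.0% of all genes. By class, the 24 h control array was the highest for 14 of 20 H/ACA genes, 25 of 31 C/D genes and 1 of 3 Cajal body genes. After each gene's own mean was subtracted, the median H/ACA gene stood at 0.10 on the 24 h adiponectin array and at 0.41 on the 24 h control array. The median C/D gene stood at 0.07 on the 24 h adiponectin array and at 0.60 on the 24 h control array. The median of all genes was 0.03 on the adiponectin array and 0.0077 on the control array. The normalization by the authors holds array medians close, so this value bears on no cause.

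**Figure D1:**
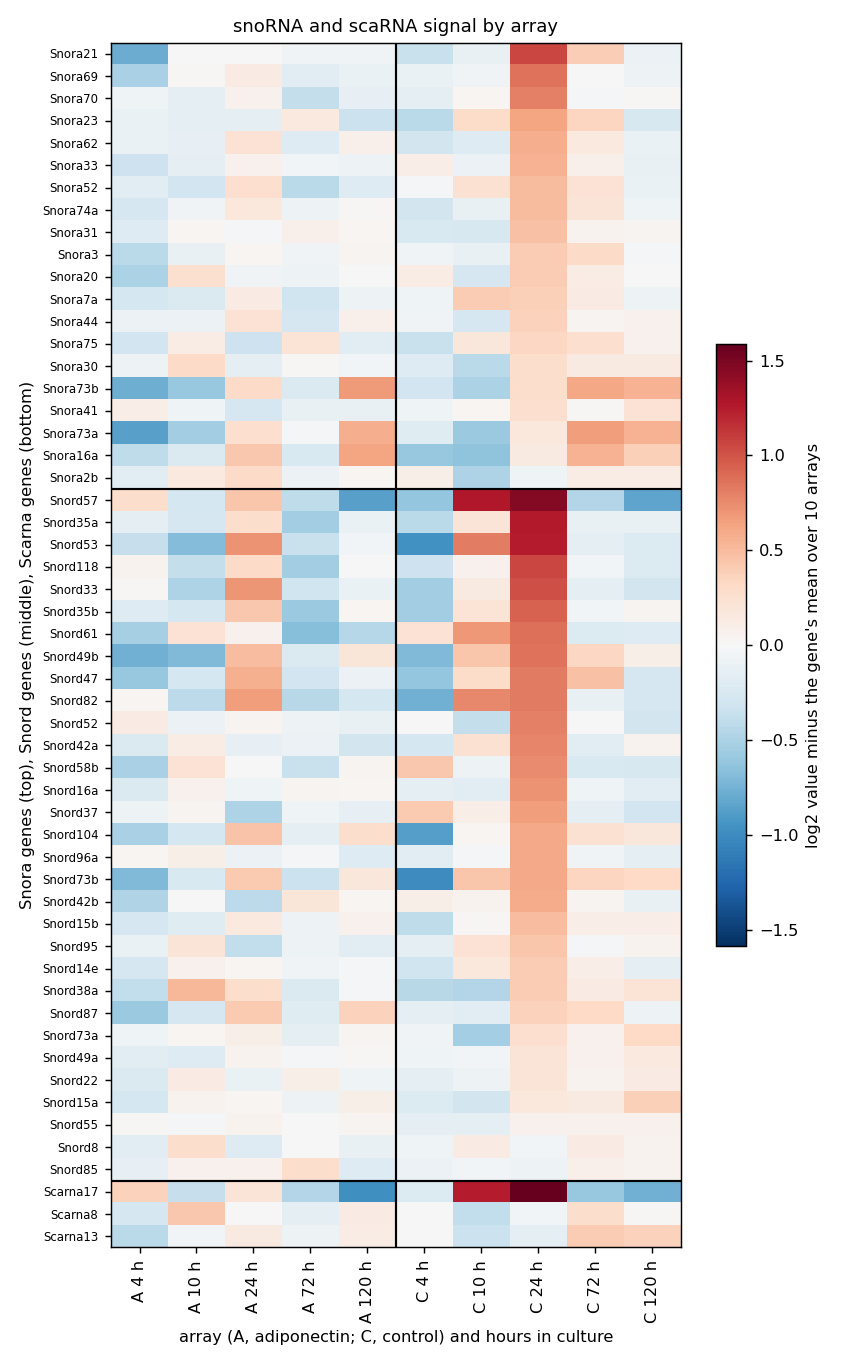
Log2 signal of each of the 54 genes minus the gene's mean over 10 arrays (colour), with the 5 adiponectin arrays (A) on the left, the 5 control arrays (C) on the right and hours in culture below. Most genes reach their highest value in the 24 h control column, and Snord57, Snord53, Snord82 and Scarna17 are also high in the 10 h control column.

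Other short RNAs and nucleolar genes were measured on the same arrays. The median of 8 other short structured RNAs, such as Rmrp and Rpph1, the RNA parts of the nucleases MRP and P, was 0.19 above their means on the 24 h adiponectin array and 0.45 above on the 24 h control array. The 30 genes for RNA polymerase I and nucleolar proteins had a median of 0.0036 on the 24 h adiponectin array and 0.24 on the 24 h control array. The 300 microRNA genes had a median of −0.03 on the 24 h adiponectin array and −0.05 on the 24 h control array, and 41 of the 300 were highest on the control array. How well these arrays read microRNAs was not tested. The microRNA values therefore do not show that the 24 h pattern is particular to some short RNAs. Only 1 control array was made at 24 h, so a difference of that culture, of its RNA or of its array cannot be told apart, and the part of each in the result was not tested.

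Higher values at 24 h than at the neighbouring times were also seen in the adiponectin arm, in fewer genes. There 32 of the 54 genes were higher at 24 h than at both 10 and 72 h, against 39.3% of all genes. In the control arm 45 of the 54 were, against 40.9% of all genes. Among the 300 microRNA genes the counts were 76 in the adiponectin arm and 83 in the control arm.

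**Figure D2:**
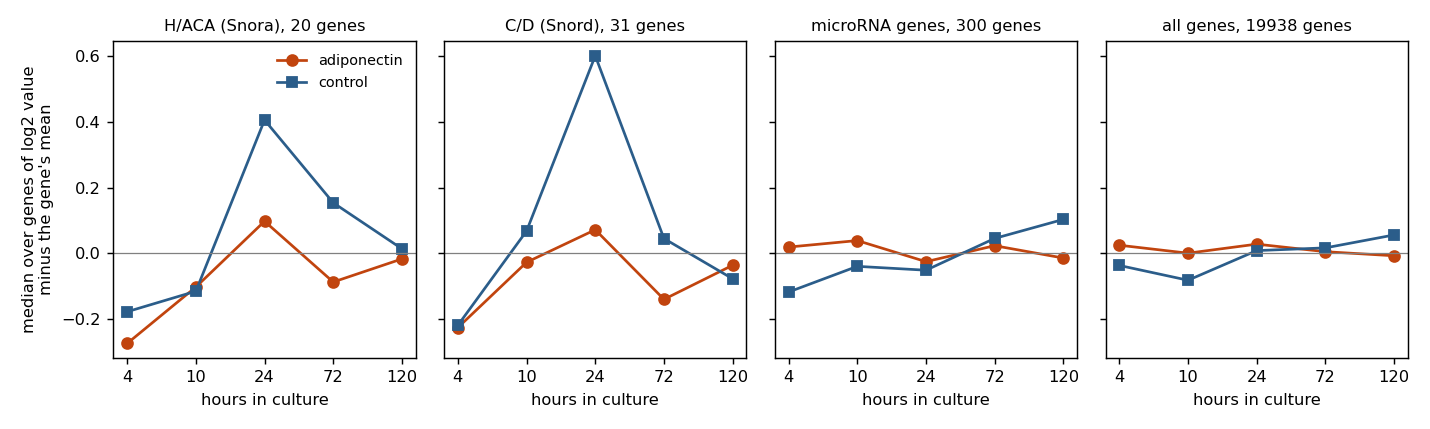
Median over genes of the log2 signal minus each gene's mean, by hours in culture, for H/ACA genes, C/D genes, microRNA genes and all genes, with adiponectin cultures as circles and control cultures as squares (1 array each). H/ACA and C/D medians reach 0.41 and 0.60 in the 24 h control culture, and the medians of microRNA genes and of all genes lie between −0.12 and 0.10.

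The H/ACA and C/D medians lay close together in the adiponectin arm and further apart in the control arm. In the adiponectin arm the H/ACA median minus the C/D median was −0.05, −0.08, 0.03, 0.05 and 0.02 log2 units at 4, 10, 24, 72 and 120 h, and the 24 h value turned to −0.00064 with quantile normalization repeated. In the control arm it was 0.04, −0.18, −0.20, 0.11 and 0.09 at these times. The C/D genes thus stood above the H/ACA genes at 10 and 24 h in control cultures and below them later, with gaps of up to 0.20. Genes of a class are not replicates, so this gap was not tested.

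Over culture time, 4 of the 54 genes rose and 0 fell in a fit over both arms. The slope per doubling of hours, with the arm as a covariate, was tested with limma on all 19938 genes, and 18.5% of all genes passed an adjusted p of 0.05, 9.81% rising and 8.67% falling. The share of the small RNAs that passed was thus below the background. Without adjustment, 9 of the 54 had p under 0.05 (16.7%), against 28.5% of all genes. The 4 were Snora73a, Snora73b and Snora16a among 20 H/ACA genes and Snord15a among 31 C/D genes. The median slope was 0.037 for H/ACA genes, with 18 of 20 above 0, and 0.027 for C/D genes, with 20 of 31 above 0, against 0.0095 for all genes.

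Snora73a and Snora73b are near-identical copies of the RNA known as U17, an H/ACA RNA needed for cleavage of the ribosomal RNA precursor and not for its modification, and both lie in Snhg3. Snora73a had log2 signals of 8.97, 9.28, 10.10, 9.81 and 10.41 at 4, 10, 24, 72 and 120 h in adiponectin cultures, against 9.64, 9.24, 10.00, 10.49 and 10.39 in control cultures. It was low at 4 and 10 h and high at 120 h in both arms, and in control cultures it was already at its highest at 72 h. Its slope was 0.24 log2 units per doubling of hours (SE 0.042, limma adjusted p = 0.0019).

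Snora73b had 9.02, 9.19, 10.10, 9.57 and 10.48 in adiponectin cultures, against 9.49, 9.29, 10.07, 10.41 and 10.35 in control cultures, and a slope of 0.24 (SE 0.046, adjusted p = 0.0033). The copies ran together, with a correlation of 0.98 over the 10 arrays. Signal of either copy on the probes of the other cannot be told apart here, so the pair counts as 1 observation. The start of their shared containing gene is the first sequence shown above.

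Snora16a, an H/ACA RNA in Snhg12, had log2 signals of 8.99, 9.16, 9.83, 9.15 and 10.03 in adiponectin cultures, against 8.79, 8.76, 9.54, 9.95 and 9.77 in control cultures. Both arms were low at 4 and 10 h, and at 72 h the adiponectin culture was again near its early level while the control culture was at its highest. Its slope was 0.20 (SE 0.048, adjusted p = 0.011). The start of Snhg12, which also holds Snora44, is the second sequence above. Snora44 had a slope of 0.025 (adjusted p = 0.71). The slopes of the 2 RNAs were not compared by a test.

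Snord15a, a C/D RNA that guides methylation of the large-subunit ribosomal RNA and lies in the ribosomal protein gene Rps3, had 7.29, 7.63, 7.61, 7.50 and 7.66 in adiponectin cultures, against 7.35, 7.28, 7.73, 7.71 and 7.95 in control cultures. Its slope was 0.086 (SE 0.026, adjusted p = 0.039), with 7 of 13 alternative settings keeping it past the threshold. Its neighbour Snord15b in the same gene had a slope of 0.073 that did not pass (adjusted p = 0.19). Rps3 itself had a slope of −0.00019 (adjusted p = 0.997).

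No member fell past the threshold. The lowest H/ACA slopes were −0.012 for Snora52 in Rplp2 (adjusted p = 0.89), −0.0041 for Snora70 in Rpl10 (0.97) and 3.8e-05 for Snora7a (0.9997), so the lowest of the class lay at about 0. The lowest C/D slopes were −0.18 for Snord57 in Nop56 (adjusted p = 0.38), −0.10 for Snord61 in Rbmx (0.31) and −0.07 for Snord37 in Eef2 (0.31). Among the Cajal body genes, Scarna13 had a slope of 0.099 (adjusted p = 0.055), Scarna8 one of 0.037 (0.61) and Scarna17 one of −0.22 (0.20). Rbmx, the gene that contains Snord61, did fall, by 0.14 per doubling (adjusted p = 0.0038).

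Within each arm the calls were fewer. In the adiponectin arm 1 of 54 genes rose, Snora73a with a slope of 0.26 (SE 0.063, limma adjusted p = 0.033), where 7.6% of all genes passed, 4.15% rising and 3.46% falling. In the control arm 2 rose, Snora16a with a slope of 0.25 (SE 0.068, adjusted p = 0.045) and Snord15a with 0.13 (SE 0.034, adjusted p = 0.046), where 9.09% of all genes passed, 4.64% rising and 4.45% falling. The call was lost in 5 of 13 alternatives for Snora73a in the adiponectin arm, and in the control arm in 7 of 13 for Snora16a and in 8 of 12 for Snord15a, whose adjusted p was 0.12 with quantile normalization repeated. These calls do not show that the arms differ. The difference between the arms' slopes passed for 0 of 54 genes in limma, as for all genes (0.0%), and 0 of the 54 and 1959 of all genes had unadjusted p under 0.05. The widest slope differences, adiponectin minus control, were 0.16 for Snord58b, 0.13 for Snord42b and 0.12 for Snord37 at the upper end, and −0.16 for Snord38a, −0.12 for Snora30 and −0.11 for Snora16a at the lower end. Their adjusted p ran from 0.52 for Snord38a to 0.63 for Snora16a.

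**Figure D3:**
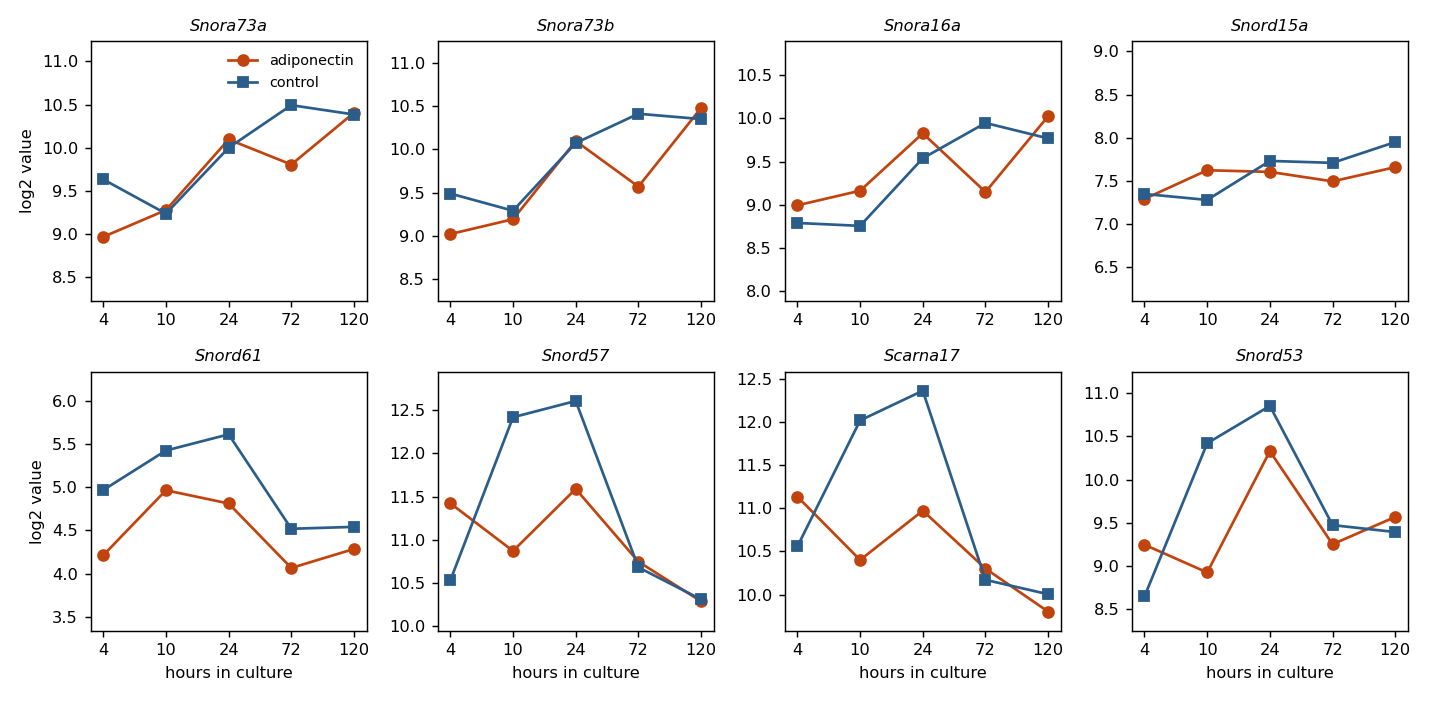
Log2 signal of 8 genes by hours in culture, 1 array per point, with adiponectin cultures as circles and control cultures as squares. Each panel spans 3 log2 units. Snora73a, Snora73b, Snora16a and Snord15a end higher than they start, Snord61 lies lower in the adiponectin culture at all 5 times, and Snord57, Scarna17 and Snord53 peak in the 10 and 24 h control cultures.

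A slope misses a rise and fall, so time was also entered as 5 levels, a fit added after the values were seen. Then 12 of 54 genes passed the limma F test, against 14.4% of all genes. They were the H/ACA genes Snora73a, Snora73b and Snora16a and the C/D genes Snord104, Snord49b, Snord35b, Snord15b, Snord47, Snord73b, Snord35a, Snord33 and Snord61. Snord104 was low at 4 h in both arms, with log2 signals of 10.54, 10.77, 11.50, 10.91 and 11.33 in adiponectin cultures, against 10.18, 11.08, 11.65, 11.29 and 11.23 in control cultures (adjusted p = 0.0041). Snord49b had 10.27, 10.33, 11.53, 10.80 and 11.23 in adiponectin cultures, against 10.34, 11.48, 11.90, 11.36 and 11.13 in control cultures (adjusted p = 0.017). Both were highest at 24 h in each arm.

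RNA of cell type markers changed over the same hours in the fit over both arms, where 9.81% of all genes rose and 8.67% fell. Of 12 neutrophil markers 11 fell and 1 rose, Mmp9, which is also among the osteoclast markers. The mean log2 signal of the 12 lay between 10.35 and 13.02 in adiponectin cultures and between 10.33 and 13.29 in control cultures. Of 9 osteoclast markers, which label the bone-resorbing cells that calcitriol lets form, all 9 rose, with means from 10.04 to 11.92 in adiponectin cultures and from 9.97 to 12.31 in control cultures. B cell markers fell in 7 of 9, cell cycle genes in 7 of 13 and erythroid markers in 3 of 5, while 6 of 9 stromal and osteoblast markers and 4 of 10 macrophage markers rose, and 3 of 9 T and NK cell markers rose and 3 fell. Their part in the slopes of the small RNAs was not tested.

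Genes for the proteins that carry these RNAs were read against the same background of 18.5% of all genes. All 8 measured core proteins were tested for the slope over time, and only Dkc1, the pseudouridine synthase of H/ACA particles, passed, falling by 0.14 per doubling (SE 0.044, limma adjusted p = 0.047). The slopes of its partners were 0.057 for Nhp2, 0.046 for Nop10 and −0.017 for Gar1, none past the threshold. Those of the C/D core proteins were −0.042 for Fbl, the methyltransferase, −0.019 for Nop56, −0.026 for Nop58 and 0.051 for Snu13, and none passed. Of 13 assembly factors 1 rose (Znhit6), of 9 Cajal body and Nopp140 genes 1 fell (Smn1), of 15 exosome and trimming genes 1 fell (Exosc9), and of 30 RNA polymerase I and nucleolar genes 1 fell (Mphosph10). Among 8 other short structured RNAs, Rmrp (0.22), Vaultrc5 (0.29) and Rny3 (0.13) rose, and Terc, the telomerase RNA, which is itself an H/ACA RNA bound by the Dkc1 protein, fell by 0.18.

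Between the arms, adiponectin cultures held lower signals for most of these RNAs, and 1 of 54 passed the test over the 5 pairs. The effect was the treatment term in limma with the time point as a block, and 2.42% of all genes passed, 2.05% higher and 0.371% lower. Without adjustment 10 of the 54 had p under 0.05 (18.5%), against 10.1% of all genes. The mean of the 5 differences, adiponectin minus control, was below 0 for 47 of the 54, against 43.9% of all genes, and its median was −0.18 log2 units, against 0.014 over all genes. Without the 24 h pair the median was −0.08, against 0.011 over all genes. The medians were −0.20 for H/ACA genes, −0.13 for C/D genes and −0.12 for the 3 Cajal body genes, and −0.10, −0.08 and −0.22 without the 24 h pair. The labels do not say that the cultures came from separate animals. With 1 array per arm and time, a p-value here sets the mean difference against its variation over the 5 time pairs. The spread between cultures of the same arm and time was not measured.

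The gene that passed was Snord61, a C/D RNA within Rbmx, whose protein binds nascent RNA. Snord61 had log2 signals of 4.21, 4.97, 4.81, 4.07 and 4.29 at 4, 10, 24, 72 and 120 h in adiponectin cultures, against 4.97, 5.43, 5.61, 4.52 and 4.54 in control cultures. It was lower with adiponectin in 5 of 5 pairs, although the 2 sets of values overlap when times are mixed. The mean difference was −0.54 ± 0.23 log2 units (SD, n = 5 pairs), and Snord61 fell by the limma test (SE 0.092, adjusted p = 0.0081). The adjusted p was 0.48 where log2 hours replaced the time block and 0.94 with no block. It is among the dimmest members, with 2.9% of genes at lower mean signals, and Rbmx differed by 0.046 (adjusted p = 0.94).

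Lower values in 5 of 5 pairs were found in 3 of 54 genes, Snord61, Snord49a and Snora52, a share near that of all genes (4.4%). Snora52, an H/ACA RNA within Rplp2, had 12.75, 12.63, 13.21, 12.51 and 12.73 in adiponectin cultures, against 12.90, 13.18, 13.44, 13.17 and 12.83 in control cultures. Its mean difference was −0.34 ± 0.25 (SD, n = 5 pairs), with an adjusted p of 0.13 in limma. Snord49a, chosen after its values were seen, differed by −0.13 ± 0.034 (SD, n = 5 pairs). At the upper end, the mean differences were 0.09 ± 0.39 for Snora2b, 0.07 ± 0.49 for Snora16a and 0.06 ± 0.54 for Snord38a (SD, n = 5 pairs), each smaller than its own spread. At the lower end after Snord61 stood Scarna17 at −0.50 ± 0.96 and Snord49b at −0.41 ± 0.49 (SD, n = 5 pairs), likewise within their spread.

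By time, the median small RNA was lower with adiponectin at 24 and 72 h under each scaling tried, and at 10 h by an amount that depended on the scaling. The median difference over the 54 genes, adiponectin minus control, was 0.016, −0.05, −0.37, −0.21 and −0.0057 log2 units at 4, 10, 24, 72 and 120 h. Over all genes it was 0.040, 0.072, 0.012, −0.010 and −0.031. The 10 h control array had the lowest median of the 10 arrays (8.27), and the 10 h difference of the 54 genes was −0.19 with array medians subtracted, level with −0.20 at 72 h in that setting, and −0.17 with quantile normalization repeated, against −0.07 and −0.02 over all genes. The 4 h difference was −0.06 with quantile normalization repeated, against 0.00052 over all genes. With 1 array per arm and time there is no test at a single time.

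The counts of genes on the deposited scale ran alongside. At 4 h 26 of 54 genes were lower with adiponectin, where 43.1% of all genes were, and at 10 h 29 of 54, where 35.4% were. With array medians subtracted the 10 h count was 38 of 54, against 62.25% of all genes. At 24 h 46 of 54 were lower, against 48.1% of all genes, and at 72 h 44 of 54, against 53.0%. At 120 h it was 28 of 54, against 56.5%. Lower values at 24 h were not particular to the small RNAs. They were found in 22 of 24 measured containing genes, 27 of 30 RNA polymerase I and nucleolar genes and 7 of 8 other short structured RNAs. The median 24 h difference of each of these sets was −0.21, against −0.37 for the 54 genes. Of the 300 microRNA genes 143 were lower at 24 h.

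Differences of 0.5 log2 units or more told the early hours from the last. At 4 h 5 of 54 genes were lower by that much (2.69% of all genes) and 5 higher (2.63%). At 10 h 10 were lower (1.5%) and 6 higher (5.16%), and with array medians subtracted 15 were lower (3.27%) and 3 higher (2.67%). At 24 h 21 were lower (3.55%) and 0 higher (3.65%), and at 72 h 10 were lower (1.17%) and 0 higher (1.84%). At 120 h 0 were lower (0.752%) and 0 higher (2.3%), so the wide differences of the early arrays, in both directions, were not seen at the end of the culture.

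**Figure D4:**
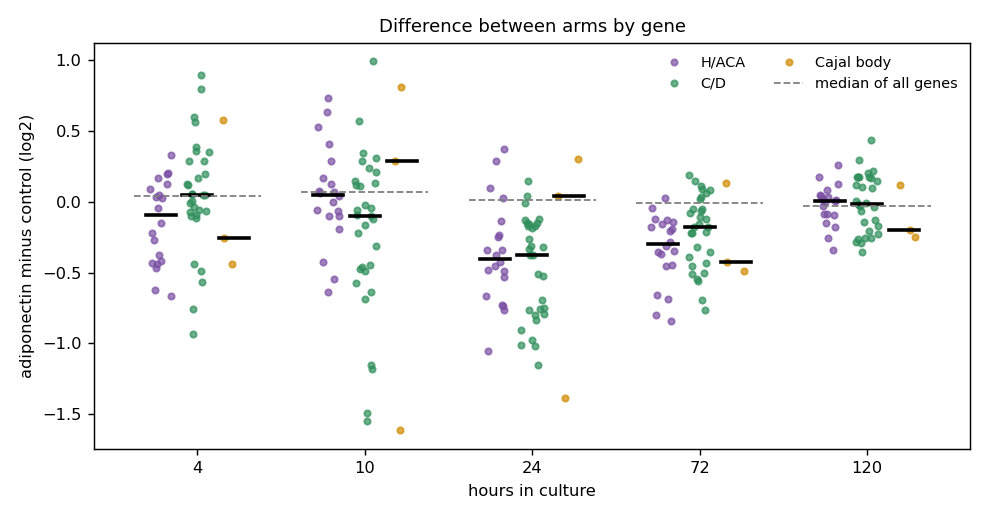
Adiponectin minus control difference of each gene (log2 units) at each time, 1 point per gene, with bars for the class medians and a dashed line for the median of all genes. The points of 24 and 72 h lie mostly below 0, with member medians of −0.37 and −0.21, and those of 120 h lie within 0.44 of 0.

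The medians of both large classes were lowest at 24 h. H/ACA genes had median differences of −0.09, 0.05, −0.40, −0.30 and 0.0059 at 4, 10, 24, 72 and 120 h, and were lower with adiponectin in 16 of 20 genes at 24 h and in 19 of 20 at 72 h. C/D genes had median differences of 0.05, −0.10, −0.37, −0.18 and −0.01, and were lower in 29 of 31 genes at 24 h and in 23 of 31 at 72 h. Of the 3 Cajal body genes, 1 was lower at 24 h and 2 at 72 h. Their median differences were −0.25, 0.29, 0.04, −0.43 and −0.20.

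The 72 h difference was smaller than that of 24 h. H/ACA genes stood at −0.09 relative to their means on the 72 h adiponectin array and at 0.15 on the 72 h control array, and C/D genes at −0.14 on the adiponectin array and 0.04 on the control array. Snora73b had the widest difference of that time, −0.84, followed by Snora16a with −0.80. Snord85 was the highest with 0.19. The measured containing genes had a median difference of −0.010 at 72 h and the nucleolar genes one of 0.022, while the 8 other short structured RNAs had −0.22, with 8 of 8 lower.

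The widest single differences came from few genes. At 4 h they were those of Snord57, with 11.42 in the adiponectin culture against 10.53 in the control culture (0.89), and of Snord58b, with 3.75 in the adiponectin culture against 4.69 in the control culture (−0.94). At 10 h Snord38a was the highest with 0.99, at 6.09 in the adiponectin culture against 5.09 in the control culture. Snord58b and Snord38a are among the 3 dimmest members. At 24 h Snora2b, in Kansl2, was the highest, with 6.63 in the adiponectin culture against 6.25 in the control culture (0.37). At 120 h the ends were Snord87 at 0.44 and Snord42a at −0.35.

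Scarna17 held the lowest difference at both 10 and 24 h. It had log2 signals of 11.13, 10.40, 10.97, 10.30 and 9.80 in adiponectin cultures, against 10.56, 12.01, 12.36, 10.17 and 10.00 in control cultures. The 10 and 24 h control cultures were thus higher than every other culture, and the differences there were −1.61 and −1.39. Snord57 followed the same course, with 11.42, 10.87, 11.59, 10.75 and 10.29 in adiponectin cultures, against 10.53, 12.42, 12.61, 10.68 and 10.31 in control cultures.

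Snord53 and Snord82 were added to these after their values were seen. Snord53, in Wdr43, had 9.25, 8.92, 10.33, 9.25 and 9.57 in adiponectin cultures, against 8.65, 10.42, 10.85, 9.47 and 9.39 in control cultures. Snord82, in Ncl, differed by −1.18 at 10 h and −0.17 at 24 h. Correlations among the 4 over the 10 arrays ran from 0.73 to 0.98, against a median of 0.45 over the 1431 pairs of members, all on the same arrays. None of the 4 passed the test of the adiponectin effect, with an adjusted p of 0.62 for Scarna17 and 0.82 for Snord57. Nop56, Wdr43 and Ncl, which contain 3 of them, encode nucleolar proteins and Gm41774, which contains Scarna17, was not measured.

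The other Cajal body genes did not peak there. Scarna13 had 11.20, 11.58, 11.78, 11.55 and 11.74 in adiponectin cultures, against 11.64, 11.29, 11.48, 12.04 and 12.00 in control cultures, and was highest at 72 h in the control arm. Scarna8 had 6.66, 7.35, 6.92, 6.78 and 7.06 in adiponectin cultures, against 6.92, 6.54, 6.88, 7.21 and 6.94 in control cultures. Mean differences were −0.12 ± 0.39 for Scarna13 and 0.06 ± 0.47 for Scarna8 (SD, n = 5 pairs).

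The RNAs that lie in 1 gene did not always run alike. Of 10 such pairs, Snora73a and Snora73b in Snhg3 had the highest correlation over the 10 arrays (0.98), followed by Snord33 and Snord35a in Rpl13a (0.91), RNAs known in mammalian cells for a part in the response to lipid overload. Snord49a and Snord49b in 2410006H16Rik, a gene whose start is the third sequence above, correlated at 0.82. The lowest were Snora75 and Snord82 in Ncl (0.22) and Snord73a and Snord73b in Rps3a1 (0.21). The ranges differ too, since Snord49a spanned 0.41 log2 units and Snord49b 1.63.

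The small RNAs tracked the gene that contains them loosely or not at all. For 28 of the 54 the shortest containing gene had a probe set of its own, 24 such genes in all. On the 24 h control array the small RNA stood above its containing gene, each relative to its own mean, in 25 of 28 pairs, with medians of 0.57 for the RNAs and 0.11 for the genes. The 24 h difference, adiponectin minus control, had a median of −0.47 for the RNAs and −0.21 for their genes, and was lower for the RNA in 22 of 28 pairs. Over the 10 arrays the correlation of RNA and gene had a median of 0.20 and ran from −0.75 for Snora31 in Tpt1 to 0.62 for Snora3 in Rpl27a. A probe set of a long gene reads spliced exons, so these values say nothing of the intron itself.

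**Figure D5:**
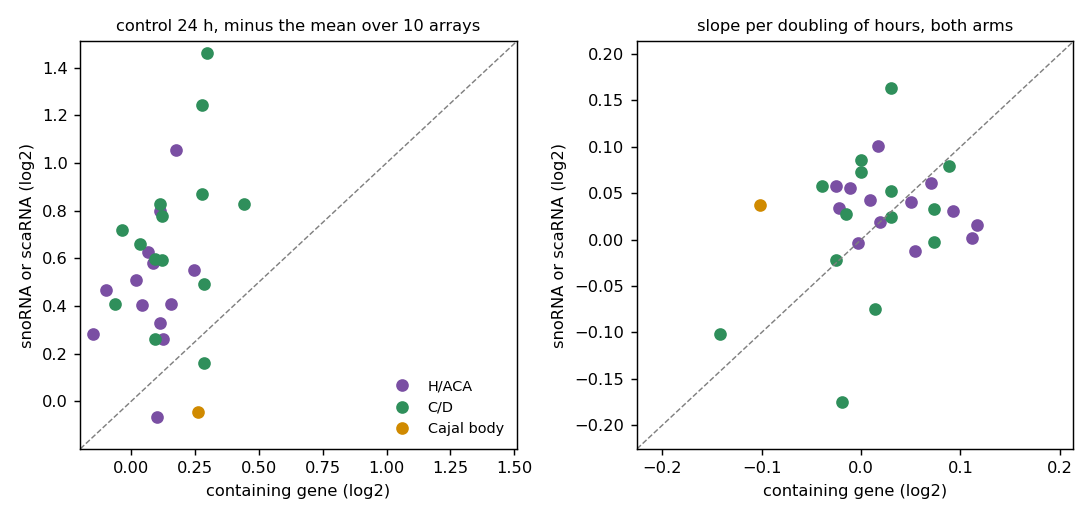
Left, log2 signal on the 24 h control array minus the mean over 10 arrays for each small RNA (vertical) against its containing gene (horizontal). Right, slope per doubling of hours over both arms for the same 28 pairs. Dashed lines mark equal values. In the left panel 25 of 28 points lie above the line. In the right panel most slopes of the small RNAs lie above 0, and those of the containing genes lie on both sides of it.

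Of the 24 containing genes 5 rose and 2 fell over time, where 9.81% of all genes rose and 8.67% fell. Those that rose were Kansl2, Rpl27a, Rps12, Eef1b2 and Rpl23a, with slopes from 0.070 to 0.12, and those that fell were Haus6 and Rbmx. None of their small RNAs rose or fell in the same test. For the adiponectin effect 0 of 24 passed in limma (2.42% of all genes), and 2 had unadjusted p under 0.05 (10.1% of all genes).

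The genes for the proteins of the particles did not pass the test between the arms either. Of the 8 core protein genes 0 passed in limma, with mean differences from −0.25 for Nop10 (adjusted p = 0.15) to 0.043 for Nop56 (0.94). The others were −0.16 for Fbl, −0.0024 for Nop58, −0.12 for Snu13, −0.09 for Dkc1, −0.04 for Nhp2 and −0.13 for Gar1. Tcof1, which encodes the nucleolar protein treacle, rose by 0.34 (adjusted p = 0.032) as the only one of 9 Cajal body and Nopp140 genes. Taf1d, which encodes a subunit of the RNA polymerase I selectivity factor, fell by 0.48 (adjusted p = 0.046) as the only one of 30 nucleolar genes. The other short structured RNAs had a median of −0.22, with −0.44 for Rmrp (adjusted p = 0.082) and −0.39 for Rny3 (0.11), and 0 of 8 passed. In the same fit 9 of 9 interferon response genes rose, with a median of 2.71, and their part in the values of the small RNAs was not tested.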

How the data were processed

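Per the labels' protocols, the RNeasy kit gave total RNA, from which an Affymetrix kit made biotin-labelled cDNA. The 54 genes are 45 (Snord42a) to 275 bases (Scarna13) long in RefSeq. How well and how evenly RNAs this short were recovered was not tested, so differences between arrays may not be differences in the cultures. The longest, Scarna13, Snora73a and Snora73b (205 bases for each Snora73 copy), did not have their highest values on the 24 h control array. Some shorter ones, such as Snord15a (148 bases) and Snord8 (99 bases), did not either. The part of length in the values was not tested. The deposited values are log2 signals, 1 per probe set and array, and RMA, Affymetrix Expression Console and Partek are named per the submitters' processing notes, with no version or order given in the sources used here. The table held 35556 probe sets, of which 21789 had 1 gene symbol, 1621 several and 12146 none. The highest-mean probe set stood for a gene, which left 19938 genes. No symbol changed through Entrez IDs in RefSeq (GRCm38.p6), and 91 IDs were outside it. The 54 genes came from 60 probe sets, and 6 had more than 1. Both probe sets of Scarna17, of Snora30 and of Snord118 held identical values. A further 41 probe sets pair such a symbol with others and enter no comparison.

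Two-sided tests were run in limma 3.58.1 (R 4.3.3), by lmFit followed by eBayes, with Benjamini-Hochberg adjustment over all genes and a threshold of 0.05, and were tried on simulated data. The time slope used log2 hours beside arm, or a slope per arm, and counted the 2 arrays of a time as independent. The adiponectin effect and the slope difference used the time point as a block. Pairs share the time that the labels give. Differences correlated across genes between pairs at 0.111 to 0.639, and genes are not independent. The number of arrays limits the precision. Alternatives were array scaling, probe set choice, a filter on dim genes, the prior, the time scale, the block, and each time point left out. Containing genes are the shortest RefSeq span around the small RNA's span. Same-strand placement was planned, but the strand of some genes is not in the table, so it was not required. Sequences are RefSeq's for GRCm38.p6, and those of the small RNAs are not used here. Genes were named by class as the steepest slopes, the widest differences, the ends of the level range, all Cajal body genes, core proteins and containing genes, with others marked as chosen after their values were seen. Members, lists and tests were chosen with earlier results of these data known.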

Additional observations from a re-analysis of the deposited data

Results flagged for a closer look

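Snora16a at 72 h stood apart from its other times. Its adiponectin minus control difference was −0.80 there, while at the other 4 times it lay between 0.20 and 0.41. The gap to the nearest other value was 0.83 of the whole range of the 5 values, above the critical value of 0.71. In all, 54 sets of 5 values over 18 members were examined and this was the only one past that value, where chance flags about 1 in 20 groups.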

How the results depend on the processing

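The count of members past the threshold for the slope over both arms was 4, and 1 to 7 with a time point or a control array left out, 1 without 120 h and 7 without 24 h. It was 12 with time as 5 levels, an alternative chosen after seeing the data, as were those without a control array and the scalings of the differences by time. The adiponectin arm count of 1 became 2 with array medians subtracted, with quantile normalization repeated and with genes above the median level only, 0 with linear hours, and 0 to 2 when arrays were left out, 2 without the 10 h control array. The control arm count of 2 became 1 with linear hours and 0 to 5 when arrays were left out, with 5 without 4 h, 1 without the 24 h control array and 0 without the 10 h control array. The count for the adiponectin effect became 0 with genes above the median level only, where Snord61 is not tested, 2 with an intensity trend and robust prior, 0 with no replicate block, and 0 where log2 hours replaced the time block. The cause of each other change was not tested. Over all genes, the both-arm count of 3684 was 1959 on the means of the 2 arrays of a time and at the lowest 1324 without 120 h. That of the adiponectin arm (1516) was as low as 38, and that of the control arm (1813) as low as 22, both without 120 h, and 3078 for the control arm with linear hours. The count for the slope difference was 0, 5 with the intensity trend and robust prior and at most 1 when a time was left out. The count for the adiponectin effect (482) was 313 without 24 h, 150 with no replicate block and 313 with log2 hours. Snora73a rose over both arms in 14 of 14 alternatives, Snora73b in 13 of 14 (adjusted p 0.063 without 120 h), Snora16a in 12 of 14 (0.086 without 4 h and 0.14 without 120 h) and Snord15a in 7 of 13 (up to 0.29, without 120 h). Members highest on the 24 h control array numbered 34 to 40 across scalings, and the median difference at 24 h lay between −0.38 and −0.35 and at 72 h between −0.21 and −0.19. At 10 h it moved from −0.05 to −0.19 with array medians subtracted and −0.17 with quantile normalization repeated, at 4 h it turned from 0.016 to −0.06 with quantile normalization repeated, and at 120 h it lay between −0.06 and 0.012. The H/ACA minus C/D gap on the 24 h control array lay between −0.22 and −0.19, and on the 24 h adiponectin array it turned from 0.026 to −0.00064 with quantile normalization repeated. Signal over background was not given, so small differences of dim genes are uncertain.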

Other observations

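Probe sets that pair a small nucleolar RNA symbol with other symbols were left out of the comparisons. The Snord116 cluster, an imprinted group of C/D RNAs known from brain, had 24 of them with 7 distinct profiles, mean log2 signals from 4.82 to 5.09 and 0 of 24 highest on the 24 h control array. Over the 7 profiles the median difference at 24 h, adiponectin minus control, was 0.19, and 0 of 7 were lower. The other 17 probe sets had 15 distinct profiles. Over these profiles the median difference at 24 h was −0.44, with 13 of 15 lower, and 10 of 15 were highest on the 24 h control array. These sets are not counted among the 54 genes, and the 7 profiles are dim.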
